A study of Mus musculus with 6 samples.

Results

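The CC chemokines that steer dendritic cells, lymphocytes and mucosal leukocytes were followed in lungs that make IL13. They are the 9 mouse genes Ccl1, Ccl17, Ccl19, Ccl20, Ccl21a, Ccl22, Ccl25, Ccl27a and Ccl28. They were taken by gene symbol, and all 9 are on the array, on 14 of its 45037 probe sets. A probe set is a group of short probes that reads 1 transcript or several near-identical ones. The 2 IL13 TG samples are mice that carry the CC10-rtTA-IL13 transgene, in which the CC10 (Scgb1a1) promoter, active in club cells, controls an activator that switches on IL13 when doxycycline is given. The 4 WT samples are wild-type mice, likewise C57BL/6. Mice of both genotypes were 6 to 10 weeks old and drank doxycycline at 2 mg/mL for 7 days, so the drug is shared. The transgene is the difference between the groups that the labels state. RNA of the left upper lobe, each sample on its own Affymetrix array, gives 1 value per probe set on the log2 scale, where a difference of 1 is a doubling.

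Chemokines are small secreted proteins that bind receptors on leukocytes and guide their movement. Ccl17 and Ccl22, made by dendritic cells and macrophages, bind Ccr4 on Th2 and regulatory T cells, and IL-4 and IL-13 induce both in culture through the transcription factor STAT6. Ccl1 binds Ccr8, also on Th2 and regulatory T cells. Ccl19 and Ccl21 bind Ccr7 and bring mature dendritic cells and naive lymphocytes to lymphatic vessels and lymph nodes. Ccl20 (Ccr6), Ccl25 (Ccr9), Ccl27 (Ccr10) and Ccl28 (Ccr10 and Ccr3) are linked to epithelial surfaces such as airway, gut and skin.

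1 WT array stood apart in a goblet cell gene that IL-13 is known to induce. Clca1, named after its values were seen, read 10.98 and 11.81 in IL13 TG lungs, against 4.49, 11.44, 5.90 and 7.37 in WT lungs, so that WT replicate 2 lay between the IL13 TG arrays. Il13 itself read 4.24 and 4.09 in IL13 TG lungs, against 3.84, 3.72, 4.03 and 3.79 in WT lungs (0.32 ± 0.13, adjusted p = 0.15, limma), with WT replicate 2 the lowest. All 6 values lay below the array medians of 5.28 to 5.31, so Il13 was dim. Il13 was thus higher in both IL13 TG arrays than in every WT array without passing. Clca1 did not set WT replicate 2 apart from the IL13 TG arrays. Whole arrays of the same genotype correlated at 0.987 or more, and those of different genotypes at 0.979 or less. WT replicate 2 was thus closer to each WT array than to either IL13 TG array. Marco, Itgax and Fcer2a, picked for large differences, read 7.21, 8.15 and 5.47 there, against at least 10.64, 11.39 and 8.97 in IL13 TG lungs. The fit behind that pick counts WT replicate 2 as WT, so low values there follow from the choice and are no separate result. The goblet cell gene Fcgbp read 7.92 there, between the IL13 TG arrays (7.65 and 7.97). The cause of the Clca1 value of WT replicate 2 was not tested. Without WT replicate 2 the differences were 1.26 for Ccl17, 0.85 for Ccl22 and -1.13 and -0.91 for Ccl27 probe sets 1434962_x_at and 1430375_a_at, all past the threshold (adjusted p = 0.020, 0.0063, 0.020 and 0.0083). That of Ccl27 probe set 1419188_s_at was -0.53 and did not pass (adjusted p = 0.080).

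Ccl17 and Ccl22 were higher and the Ccl27 probe sets were lower in IL13 TG than in WT lungs, and no other member passed the test. Ccl17 was 2.29-fold and Ccl22 1.68-fold higher, and the 3 Ccl27 probe sets were 1.52-fold to 2.27-fold lower. Of the 14 probe sets 2 were called higher and 3 were called lower (limma, adjusted p under 0.05). Over all probe sets of the array 5.39% were called higher and 5.99% lower. The 3 lower ones all read Ccl27, so the 5 calls stand for 3 of the 9 genes. The median difference over the 14 was 0.04, against 0.01 over all probe sets, and the median absolute difference was 0.31 against 0.18. Without IL13 TG replicate 1 there were 0 calls in either direction. Without IL13 TG replicate 2 there was 1 in each direction, and without WT replicate 1 there was 1 higher.

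The stretches before the transcription starts of Ccl17 and Ccl22, the pair that rose, and of Ccl27a, 1 of the copies that the falling Ccl27 probe sets read, are shown because STAT6 is the factor that links IL-13 to such genes. Ccl22 and Ccl17 are neighbours on chromosome 8, with 58.0 kb between them. Each line holds the 250 bases before a RefSeq start in GRCm38.p6, 5′ to 3′ on the gene's own strand. The Ccl17 window lies inside the span given for the gene, chr8:94809380-94812038. The 58.0 kb is counted to the first base of that span, and the bases before it were not searched. The Ccl27a window overlaps the span of its gene, which ends at chr4:41774225. Capitals mark matches to the STAT6 motif TTCNNNNGAA, the shorter STAT motif TTCNNNGAA or the NF-kB motif, each searched on both strands.
Ccl17, plus strand, chr8:94810203-94810452: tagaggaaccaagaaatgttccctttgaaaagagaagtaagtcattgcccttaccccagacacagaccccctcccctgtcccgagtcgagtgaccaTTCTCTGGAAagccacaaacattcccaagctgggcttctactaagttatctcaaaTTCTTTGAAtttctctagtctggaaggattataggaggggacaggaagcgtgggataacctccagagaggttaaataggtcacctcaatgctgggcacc
Ccl22, plus strand, chr8:94745434-94745683: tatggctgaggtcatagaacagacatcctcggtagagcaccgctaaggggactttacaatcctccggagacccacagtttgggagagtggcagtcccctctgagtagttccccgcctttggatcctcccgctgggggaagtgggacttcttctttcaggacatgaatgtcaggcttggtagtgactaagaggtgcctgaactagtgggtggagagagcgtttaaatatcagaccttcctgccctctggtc
Ccl27a, minus strand, chr4:41774177-41774426, the farthest upstream of its 3 starts: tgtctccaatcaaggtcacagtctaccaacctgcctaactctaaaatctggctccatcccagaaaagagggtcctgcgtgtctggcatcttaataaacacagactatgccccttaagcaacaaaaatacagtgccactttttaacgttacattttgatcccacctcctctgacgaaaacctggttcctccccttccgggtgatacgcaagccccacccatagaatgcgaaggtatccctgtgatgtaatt
The Ccl17 window holds 1 match to the STAT6 motif, TTCTCTGGAA, at bases -154 to -145, and 1 match to the shorter motif, TTCTTTGAA, at -99 to -91, counted back from the start. The Ccl22 and Ccl27a windows hold no match to these motifs. Of 32851 windows of this length in the table, 5.85% hold the STAT6 motif, 7.02% the shorter one and 7.25% the NF-kB motif. Windows were found for all 9 genes, 12 in all. Among them Ccl17 alone holds either STAT motif, and Ccl1 and Ccl20 hold the NF-kB motif. A match is a string of letters and does not show that a factor binds.

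Ccl17, the attractant of Ccr4-bearing T cells, was higher in IL13 TG lungs. Its probe set 1419413_at read 9.57 and 8.66 in IL13 TG lungs, against 7.91, 8.12, 7.64 and 8.03 in WT lungs. The groups did not overlap, and the lower IL13 TG array lay 0.54 above the highest WT array. The means were 9.12 ± 0.65 in IL13 TG (SD, n = 2) and 7.92 ± 0.21 in WT lungs (SD, n = 4). The difference was 1.19 ± 0.24 (SE; 95% interval 0.64 to 1.75; adjusted p = 0.016, limma over all probe sets). The IL13 TG arrays stood 0.92 apart, more than the WT range. Without IL13 TG replicate 1 the difference was 0.74 and did not pass (adjusted p = 0.11), and without IL13 TG replicate 2 it was 1.65.

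Ccl22, the other Ccr4 ligand, gave closer replicates. Probe set 1417925_at read 7.34 and 7.24 in IL13 TG lungs, against 6.34, 6.87, 6.58 and 6.38 in WT lungs. The groups did not overlap, and WT replicate 2 came nearest, 0.37 below the lower IL13 TG array. The means were 7.29 ± 0.07 in IL13 TG and 6.54 ± 0.24 in WT lungs, a difference of 0.75 ± 0.16 (SE; 95% interval 0.38 to 1.11; adjusted p = 0.021, limma). The call ended without IL13 TG replicate 1 (0.69, adjusted p = 0.16), without IL13 TG replicate 2 (0.80, adjusted p = 0.096) and without WT replicate 1 (0.68, adjusted p = 0.053).

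Ccl1, the ligand of Ccr8, was dim. Probe set 1421688_a_at read 4.20 and 4.36 in IL13 TG lungs, against 4.16, 4.30, 4.13 and 3.90 in WT lungs. The groups overlapped, and all 6 values lay below the array medians of 5.28 to 5.31. The difference was 0.16 ± 0.14 (95% interval -0.15 to 0.47, adjusted p = 0.53). Ccl1 was not detectably different at this brightness, which does not show that its RNA was equal.

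**Figure D1:**
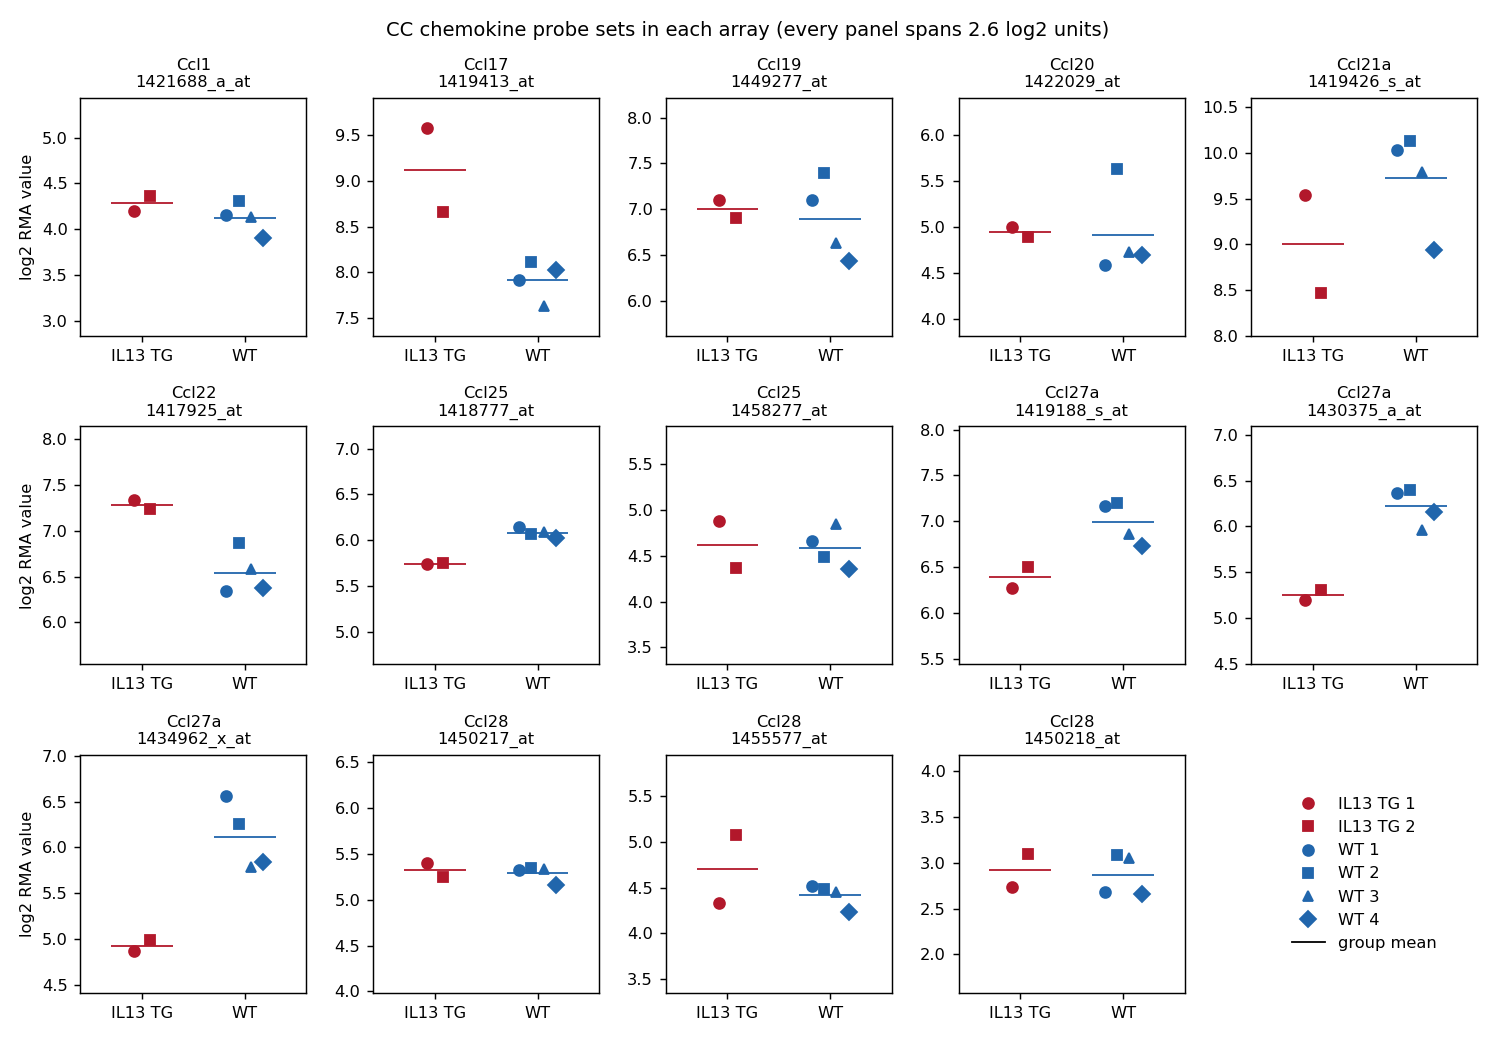
The log2 RMA value (vertical axis) of each of the 14 CC chemokine probe sets is plotted for the 2 IL13 TG arrays (red) and the 4 WT arrays (blue), with a line at each group mean. Both IL13 TG arrays lie above every WT array for Ccl17 and Ccl22 and below every WT array for the 3 Ccl27 probe sets and 1 Ccl25 probe set, and the groups overlap in the other 8.

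Ccl27 is the skin- and epithelium-associated ligand of Ccr10, and mouse chromosome 4 carries several copies of its gene. Of its 3 probe sets, 1434962_x_at is annotated to Ccl27a, at chr4:41769467-41774225, whereas 1430375_a_at and 1419188_s_at each carry 5 symbols, Ccl27b among them. All 3 are therefore read as Ccl27 without telling the copies apart, and they are no independent replicates of each other. Probe set 1434962_x_at read 4.86 and 4.99 in IL13 TG lungs, against 6.56, 6.26, 5.78 and 5.84 in WT lungs. Probe set 1430375_a_at read 5.19 and 5.31 in IL13 TG lungs, against 6.37, 6.39, 5.97 and 6.15 in WT lungs. Probe set 1419188_s_at read 6.28 and 6.50 in IL13 TG lungs, against 7.16, 7.20, 6.86 and 6.73 in WT lungs. In each of the 3 both IL13 TG arrays lay below every WT array, and IL13 TG replicate 1 was the lower one.

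The differences at these Ccl27 probe sets were -1.18 ± 0.22, -0.97 ± 0.15 and -0.60 ± 0.16 (SE), in the same order. Their adjusted p-values in limma were 0.010, 0.0043 and 0.048. The IL13 TG values of 1434962_x_at lay under the array medians, where background signal weighs more, so the size of its fall is uncertain. The call of 1434962_x_at ended without IL13 TG replicate 1 (-1.12, adjusted p = 0.10) or replicate 2 (-1.25, adjusted p = 0.065). That of 1430375_a_at ended without IL13 TG replicate 1 (-0.91, adjusted p = 0.059). That of 1419188_s_at ended without IL13 TG replicate 1 (adjusted p = 0.29) or 2 (0.12) and without WT replicate 1 (0.11), 2 (0.080) or 3 (0.069). In a lobe of mixed cells, fewer cells of a type and less RNA per cell cannot be told apart, and this holds for each gene named here.

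Ccl25, the ligand of Ccr9 known from thymus and small intestine, was read by a pair of probe sets. Probe set 1418777_at read 5.74 and 5.75 in IL13 TG lungs, against 6.15, 6.07, 6.09 and 6.03 in WT lungs. The groups did not overlap, but the difference of -0.34 ± 0.10 did not pass (95% interval -0.58 to -0.10, adjusted p = 0.075). Probe set 1458277_at read 4.88 and 4.37 in IL13 TG lungs, against 4.66, 4.48, 4.84 and 4.35 in WT lungs. These values overlap and lie below the array medians, with a difference of 0.04 ± 0.18 (adjusted p = 0.93). The 7 thymus markers did not pass in either direction, where 7.28% of all genes were called higher and 8.69% lower. Their mean per array was 4.15 and 3.97 in IL13 TG lungs, against 3.97 to 4.07 in WT lungs. The largest difference among them was that of Rag2, a recombinase gene of developing lymphocytes (0.23 ± 0.12, adjusted p = 0.27).

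Both IL13 TG arrays lay above every WT array in 2 of the 14 probe sets and below every WT array in 4. Over all probe sets 17.5% lay above and 17.2% below in this way. The authors' deposited table gives the same differences with a q-value for each probe set. In the authors' deposited table, Ccl25 probe set 1418777_at alone of the 14 has a q-value under 0.05 (0.043), as do 1.88% of all probe sets. The authors' deposited table gives q = 0.065 for Ccl22 and 0.36 for Ccl17, and for the 3 Ccl27 probe sets q = 0.12, 0.065 and 0.12. How those q-values were computed is not stated in the labels.

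**Figure D2:**
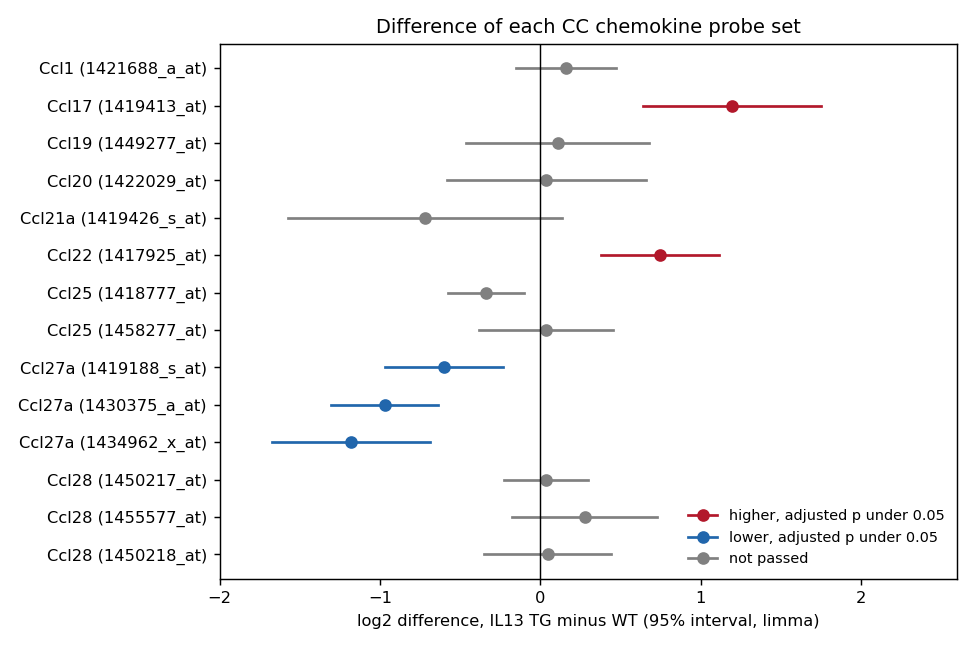
Each point is the log2 difference of IL13 TG minus WT (horizontal axis) for 1 of the 14 probe sets, with its 95% interval from limma. The intervals of Ccl17 and Ccl22 lie above 0, those of the 3 Ccl27 probe sets and of 1 Ccl25 probe set below 0, and the other 8 include 0.

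The Ccl21 probe set varied among mice of a genotype. Ccl21, which lymphatic vessels display to draw in Ccr7-bearing cells, has several gene copies in the mouse. Probe set 1419426_s_at carries 9 symbols, Ccl21a (chr4:42772860-42773991) and Ccl21b among them, and cannot separate them. It read 9.54 and 8.46 in IL13 TG lungs, against 10.03, 10.13, 9.79 and 8.94 in WT lungs. IL13 TG replicate 2 was the lowest of the 6 arrays and WT replicate 4 the next lowest, so that the groups overlapped. The means were 9.003 ± 0.76 in IL13 TG and 9.72 ± 0.54 in WT lungs. The difference of -0.72 ± 0.37 did not pass (95% interval -1.57 to 0.13, adjusted p = 0.28). It was -1.26 without IL13 TG replicate 1 and -0.18 without IL13 TG replicate 2, and did not pass in either case (adjusted p = 0.17 and 0.87).

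Markers of lymphatic endothelium, a main source of Ccl21, were read beside it. Of 8 measured, 1 was called higher, 3 lower and 4 did not pass, with a median difference of -0.48, against -0.0047 over all 18193 genes. Over those genes 7.28% were called higher and 8.69% lower. The mean of the 8 markers was 7.78 and 7.94 in IL13 TG lungs, against 8.16 to 8.32 in WT lungs. Lyve1, a hyaluronan receptor of lymphatic endothelium and some macrophages, read 10.23 and 11.00 in IL13 TG lungs, against 12.04, 12.28, 11.97 and 11.66 in WT lungs (difference -1.38 ± 0.23, adjusted p = 0.0072). The extracellular matrix gene Reln fell by 0.73 (SE 0.18, adjusted p = 0.035) and the VEGF receptor gene Flt4 by 0.62 (SE 0.14, adjusted p = 0.026). Prox1, the defining transcription factor, read 3.47 and 3.46 in IL13 TG lungs, against 3.39 to 3.51 in WT lungs, near the floor of the array, and is named here after its values were seen. The part of these markers in the Ccl21 values was not tested. The 3 falls were 0 without IL13 TG replicate 1 and 1 without IL13 TG replicate 2. The 1 rise, that of the co-receptor gene Nrp2 (0.49 ± 0.11, adjusted p = 0.021, named after its value was seen), was 0 without either of these or without WT replicate 1. The call of Reln also ended without WT replicate 1, 3 or 4 (adjusted p = 0.056, 0.075 and 0.051).

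Ccl19, the other Ccr7 ligand, did not differ detectably. Probe set 1449277_at, which carries 10 symbols of Ccl19 and its copies, read 7.10 and 6.90 in IL13 TG lungs, against 7.10, 7.40, 6.63 and 6.44 in WT lungs. Both IL13 TG values lay within the WT range. The difference was 0.11 ± 0.25 (95% interval -0.46 to 0.68, adjusted p = 0.84). Ccr7 itself, the receptor, read 6.55 and 6.81 in IL13 TG lungs, against 6.94, 6.86, 6.67 and 6.46 in WT lungs (-0.05 ± 0.16, adjusted p = 0.89).

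Ccl20, an attractant of Ccr6-bearing dendritic cells, B cells and Th17 cells that airway epithelium can make, was dim. Probe set 1422029_at read 5.002 and 4.89 in IL13 TG lungs, against 4.58, 5.64, 4.72 and 4.69 in WT lungs. WT replicate 2 stood above the other 5 arrays, and the groups overlapped. The difference was 0.04 ± 0.27 (95% interval -0.58 to 0.66, adjusted p = 0.95). The same WT array also had the highest mean of 8 ciliated cell markers (7.77, against 6.56 to 7.04 in the other WT arrays and 6.35 and 6.92 in IL13 TG lungs), and the part of this in Ccl20 was not tested.

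Ccl28, a mucosal ligand of Ccr10 and Ccr3, has 3 probe sets, and none passed. Probe set 1450217_at read 5.40 and 5.25 in IL13 TG lungs, against 5.33, 5.34, 5.33 and 5.16 in WT lungs. Probe set 1455577_at read 4.33 and 5.07 in IL13 TG lungs, against 4.51, 4.48, 4.46 and 4.23 in WT lungs. Probe set 1450218_at read 2.74 and 3.10 in IL13 TG lungs, against 2.68, 3.09, 3.06 and 2.66 in WT lungs. The groups overlapped in all 3, and the group means of all 3 lay near or below the array medians. The differences were 0.03 ± 0.11, 0.28 ± 0.20 and 0.04 ± 0.17, in the same order (adjusted p = 0.89, 0.44 and 0.91).

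Within the WT group, replicates 2 and 4 stood at the ends for many members. WT replicate 2 had the highest WT value in 10 of the 14 probe sets and the lowest in 0, whereas over all probe sets it was highest in 25.9% and lowest in 27.8%. WT replicate 4 had the lowest WT value in 9 and the highest in 0, against 30.2% and 27.5% over all probe sets. The 14 probe sets read 9 genes, with repeats for Ccl25, Ccl27 and Ccl28 that are not independent, so these counts do not stand for as many genes. WT replicate 2 also had the highest WT means of club, goblet and ciliated cell markers (12.88, 7.29 and 7.77). WT replicate 4 had the highest means of heart muscle and fat markers (9.50 and 9.33). The part of these markers in the order of the members was not tested. Without both of these WT arrays the difference of Ccl17 was 1.34, that of Ccl22 0.83, and those of the Ccl27 probe sets -1.24, -0.92 and -0.63, all past the threshold but the last (adjusted p = 0.071).

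**Figure D3:**
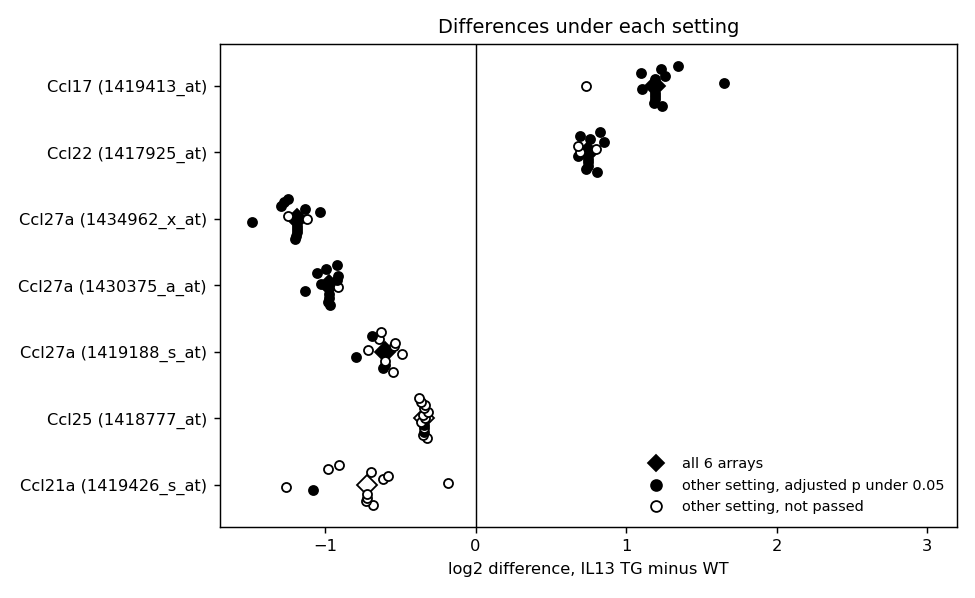
The log2 difference of IL13 TG minus WT (horizontal axis) is shown for 7 probe sets with all 6 arrays (diamond) and under each other setting (circle), filled where the adjusted p was under 0.05. The Ccl17 and Ccl22 points all lie above 0 and the points of the Ccl27, Ccl25 and Ccl21 probe sets shown all lie below 0, with Ccl21 spread from -1.26 to -0.18.

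The receptors of the members gave no call. Of the 7 receptor genes 0 were called higher and 0 lower in limma, where 7.28% and 8.69% of all genes were. Ccr6 alone had an unadjusted p under 0.05 (0.018, limma). Ccr4, the receptor of Ccl17 and Ccl22, read 4.02 and 4.11 in IL13 TG lungs, against 4.25, 3.93, 3.67 and 3.89 in WT lungs (0.13 ± 0.16, adjusted p = 0.69). Ccr6, the receptor of Ccl20, read 5.69 and 5.26 in IL13 TG lungs, against 5.06, 5.22, 4.87 and 4.91 in WT lungs. These groups did not overlap, and the difference of 0.46 ± 0.16 did not pass (adjusted p = 0.11). Ccr8 differed by 0.20 ± 0.15, Ccr9 by 0.38 ± 0.20, Ccr10 by 0.15 ± 0.13 and Ccr3 by -0.03 ± 0.11 (adjusted p = 0.45, 0.30, 0.54 and 0.91). Their values all lay below the array medians, between 2.99 and 4.66 in IL13 TG lungs and between 3.06 and 4.59 in WT lungs, where small changes are hard to see.

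Atypical receptors, which bind chemokines without the usual signalling, moved both ways. Of 5 measured 1 was called higher and 2 lower, where 7.28% and 8.69% of all genes were. Ackr4 and Ccrl2, named after their values were seen, differed by 0.21 ± 0.24 and -0.03 ± 0.16 and did not pass (adjusted p = 0.65 and 0.94, limma). Ackr2, which takes up and degrades inflammatory CC chemokines including Ccl17 and Ccl22, read 7.38 and 8.11 in IL13 TG lungs, against 8.93, 9.10, 8.59 and 8.52 in WT lungs. It fell by 1.04 (SE 0.23, adjusted p = 0.024), but not past the threshold without IL13 TG replicate 1 (adjusted p = 0.21) or WT replicate 1 (0.065). Ackr1, which binds Ccl17 among others on venules and red cells, read 7.08 and 6.62 in IL13 TG lungs, against 6.06, 6.19, 5.90 and 6.20 in WT lungs. It rose by 0.76 ± 0.16 (adjusted p = 0.017), and without IL13 TG replicate 1 the difference of 0.53 did not pass (adjusted p = 0.16). Ackr3, which binds CXC chemokines and none of the members, fell by 0.68 (SE 0.15, adjusted p = 0.020), a call that ended without either IL13 TG array (adjusted p = 0.12 in each case).

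**Figure D4:**
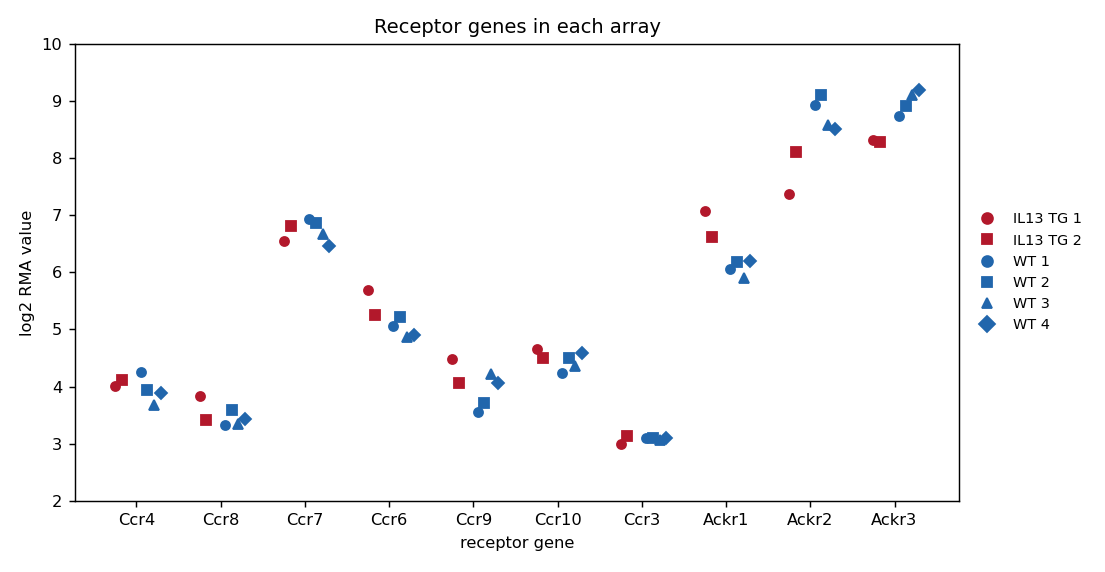
The log2 RMA value (vertical axis) of the 7 receptor genes of the members and of 3 atypical receptors is plotted for the 2 IL13 TG arrays (red) and the 4 WT arrays (blue). Ackr1 lies higher and Ackr2 and Ackr3 lie lower in both IL13 TG arrays than in every WT array, and of the 7 receptor genes Ccr6 alone shows no overlap.

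Markers of dendritic cells, which make Ccl17 and Ccl22, rose in part. Of 11 measured genes of conventional dendritic cells 4 were called higher, 0 lower and 7 did not pass, with a median difference of 0.41. Over all 18193 genes 7.28% were called higher and 8.69% lower, with a median difference of -0.0047. The mean of the 11 genes was 6.96 and 6.73 in IL13 TG lungs, against 6.15 to 6.30 in WT lungs. The transcription factor genes Batf3 and Irf4 rose by 2.48 ± 0.19 and 1.59 ± 0.13, and the endocytic receptor gene Ly75 by 1.55 ± 0.16 (adjusted p = 0.00013, 0.00016 and 0.00056). The integrin gene Itgae, named after its value was seen, rose by 0.89 ± 0.17 (adjusted p = 0.011). Zbtb46, a transcription factor gene that marks this lineage, and Dpp4, a peptidase gene, are also named after their values were seen. Zbtb46 read 6.99 and 7.43 in IL13 TG lungs, against 7.89, 7.49, 7.77 and 7.90 in WT lungs (-0.55 ± 0.17, adjusted p = 0.075). Dpp4 read 9.26 and 8.92 in IL13 TG lungs, against 9.57, 9.34, 9.52 and 9.78 in WT lungs (-0.46 ± 0.16, adjusted p = 0.0997). Both genes lay below every WT array in both IL13 TG arrays without passing, and without WT replicate 2 Zbtb46 passed (-0.64, adjusted p = 0.038). Flt3, Clec10a and Irf8, likewise named after their values were seen, lay above every WT array in both IL13 TG arrays without passing. They differed by 0.41 ± 0.12, 0.61 ± 0.19 and 0.27 ± 0.11 (adjusted p = 0.071, 0.075 and 0.18, limma). Of 11 genes of mature dendritic cells, Ccr7 again among them, 4 were called higher and 1 lower, with a median of 0.24. Their mean was 6.95 in each of the IL13 TG lungs, against 6.48 to 6.59 in WT lungs. The actin-bundling gene Fscn1 rose by 1.33 ± 0.35, the surface marker gene Cd83 by 1.26 ± 0.29 and the NF-kB subunit gene Relb by 0.98 ± 0.12 (adjusted p = 0.042, 0.027 and 0.0012). The other calls, named after their values were seen, were the costimulatory gene Cd86 (0.89 ± 0.15, adjusted p = 0.0070) and the signalling adaptor gene Traf1 (-0.76 ± 0.11, adjusted p = 0.0035). The 4 rises were 1 without IL13 TG replicate 1 and 2 without IL13 TG replicate 2. The call of Fscn1 ended without either of these (adjusted p = 0.19 and 0.21) or without WT replicate 3 (0.061). That of Cd83 ended without either IL13 TG array (0.23 and 0.060) or without WT replicate 1 (0.069). Macrophages also express several of these genes, and the part of either cell type in the rise of Ccl17 and Ccl22 was not tested.

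Of alveolar macrophage markers, 5 of 7 rose and 2 fell, where 7.28% and 8.69% of all genes did. Their mean was 9.57 and 9.39 in IL13 TG lungs, against 8.37 to 8.64 in WT lungs. Largest were the rise of Marco, a scavenger receptor gene (3.66 ± 0.20), that of Itgax, which encodes CD11c and is shared with dendritic cells (3.46 ± 0.13), and the fall of Fabp1, a lipid-binding gene (-3.44 ± 0.32). The other calls, named after their values were seen, were Pparg, Chil3 and Car4 (1.73, 1.45 and 0.75) and Siglecf (-0.77). The 2 falls were 1 without IL13 TG replicate 2 or without WT replicate 1, 3 or 4. Most markers of lymphocytes, the cells that these chemokines attract, did not pass, where 7.28% of all genes were called higher and 8.69% lower. Of 7 B cell markers 2 rose, the low-affinity IgE receptor gene Fcer2a by 3.53 ± 0.13 and Cd22 by 1.31 ± 0.15, genes that are not limited to B cells. Of 9 T cell markers the adhesion gene Cd2 alone rose (0.66 ± 0.12), and not without IL13 TG replicate 1 or 2 (adjusted p = 0.086 and 0.062). Of 7 genes of Th2 and regulatory T cells the costimulatory gene Icos rose by 0.81 ± 0.21 (adjusted p = 0.045) and the Th2 factor gene Gata3 fell by 0.72 (SE 0.19, adjusted p = 0.043). The call of Icos ended without IL13 TG replicate 1 (adjusted p = 0.27) or 2 (0.14) or without WT replicate 1, 3 or 4 (0.092, 0.089 and 0.077). That of Gata3 ended without IL13 TG replicate 1 (0.15) or 2 (0.23) or without WT replicate 2, 3 or 4 (0.074, 0.090 and 0.072). Of 9 genes of lymphoid aggregates the B cell attractant gene Cxcl13 alone rose (1.12 ± 0.23, adjusted p = 0.015), and not without IL13 TG replicate 1 (0.16).

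Epithelial markers, read because airway epithelium can make Ccl20, Ccl27 and Ccl28, fell mainly among club cell genes. Of 8 club cell markers 5 fell and 0 rose, where 8.69% and 7.28% of all genes did. Their mean was 10.95 and 11.52 in IL13 TG lungs, against 12.15 to 12.88 in WT lungs. The secretoglobin genes Scgb3a1 and Scgb3a2 fell by 2.88 (SE 0.23) and 1.58 (SE 0.18), and the cytochrome gene Cyp2f2 by 1.63 (SE 0.31). The other falls, named after their values were seen, were Cbr2 (-1.23) and Aldh1a1 (-1.01). The 3 that did not pass were Cckar (-0.82 ± 0.46), Gabrp (-0.61 ± 0.41) and Scgb1a1, whose promoter drives the transgene (-0.19 ± 0.14, adjusted p = 0.47). Without IL13 TG replicate 1 the 5 falls were 3, and Cyp2f2 did not pass (adjusted p = 0.14). Of 9 goblet cell markers the lectin gene Itln1 alone rose (1.24 ± 0.25), and not without IL13 TG replicate 1 or 2 (adjusted p = 0.11 in each case). Clca1 had a larger difference that did not pass (4.10 ± 1.56, adjusted p = 0.14). Without WT replicate 2 it was 5.48 ± 0.70 and passed (adjusted p = 0.0028). In that setting 4 goblet cell markers rose (Clca1, Itln1, Fcgbp and Foxa3) and Tff2 fell, and without WT replicate 4, 1 fell. Of 8 ciliated cell markers Ccdc39 alone fell, by 0.73 (SE 0.14), and not without IL13 TG replicate 1 or 2 (adjusted p = 0.10 and 0.069), and without WT replicate 4 the count was 2. Of 7 alveolar type II markers the surfactant gene Sftpd alone rose (0.75 ± 0.11). The part of club cells in the fall of Ccl27 was not tested.

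Heart muscle and fat, which can be carried along with a lobe, differed among the arrays. Their counts stand beside 7.28% of all genes called higher and 8.69% called lower. Heart muscle markers averaged 6.85 and 4.99 in IL13 TG lungs, against 7.49 to 9.50 in WT lungs, and 4 of 8 fell, led by Myh6 (-3.71 ± 0.88), Tnnt2 (-3.07 ± 0.79) and Tnni3 (-2.70 ± 0.69), with Actc1 (-1.77 ± 0.31) named after its value was seen. The 4 falls were 0 without IL13 TG replicate 2, 1 without WT replicate 1 and 2 without WT replicate 3 or 4. Fat markers averaged 7.05 and 4.35 in IL13 TG lungs, against 7.36 to 9.33 in WT lungs. Of the 6 measured, 2 fell, Thrsp (-2.96 ± 0.75) and Cidec (-2.85 ± 0.47), and this count was 4 without IL13 TG replicate 1, 0 without IL13 TG replicate 2 and 1 without WT replicate 1 or 3. Without IL13 TG replicate 2 the adjusted p of Myh6, Tnnt2, Tnni3, Thrsp and Cidec lay between 0.050 and 0.27. The part of heart muscle and fat in the values of the members was not tested. The type II cell gene Sftpc, a marker of lung, read 15.19 and 15.10 in IL13 TG lungs, against 15.07 to 15.17 in WT lungs.

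The genes whose values ran most like those of the called members over the 6 arrays were searched among genes with a mean of at least 6. Pearson's r is given as a description over 6 arrays that share the genotype split. For Ccl17 they were Blvrb (0.996), Ackr1 (0.995) and Ndufv3 (0.993). Blvrb encodes biliverdin reductase B, and Ndufv3 a subunit of respiratory complex I. For Ccl22 they were Kcnq1, a potassium channel gene (0.994), Tpp2, a peptidase gene (0.992), and Copz1, a coat protein gene (0.989). For Ccl27 probe set 1419188_s_at they were Gadd45b (0.9997), Ift43 (0.998) and Wasf2 (0.998). That probe set is the brightest of the 3 for Ccl27 and the weakest call (adjusted p = 0.048, limma), and the others were not searched. A high r does not mean a large difference. Gadd45b (-0.21), Tpp2 (0.18), Ndufv3 (0.53) and Wasf2 (-0.60) did not pass in limma (adjusted p = 0.28, 0.34, 0.051 and 0.051). Ackr1 was picked by this search among 10199 genes, so its likeness to Ccl17 over the arrays follows from the choice and is no separate result.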

How the data were processed

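Per the labels' protocols, lung RNA was extracted with TRIzol and labelled cRNA hybridized to Affymetrix arrays. Per the submitters' processing notes, RMA was used by the authors to make the deposited log2 values. No version is named. The authors' deposited table holds group means on the log2 scale, their difference and a q-value, whose test the labels do not state. Its 6 columns of single arrays were not used, as their names match no sample label.

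Of 45037 probe sets 34945 carry a single symbol, 932 several and 9160 none. Symbols were updated through RefSeq. With R 4.3.3, limma 3.58.1 (lmFit, then eBayes) was run on all probe sets, which leaves 4 residual degrees of freedom per probe set. The p-values were adjusted over all of them by Benjamini-Hochberg. Genes of the 17 lists were read from the single-symbol probe set with the highest mean, for 18193 genes. The script was tested on simulated data. With 2 against 4 arrays there are 15 splits, and a two-sided exact rank-sum test of a single value cannot go below p = 0.133. The calls depend on limma's pooling of variance among probe sets. The labels call the samples biological replicates and give no batch, and the number of arrays limits the precision. No background correction could be repeated from RMA values.

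The members and the lists were chosen with earlier results of these data known. The text names all members, the receptors, and from each other list the 3 largest called differences, or the largest where none passed. It also names the 3 genes most like each called member, clone names passed over. The 13 alternatives tried are an added quantile normalization, median centring, a filter (log2 of 6 in 2 arrays), an intensity trend with robust moderation, 1 probe set per gene, the replicate number as a block, leaving out each of the 6 arrays, and leaving out WT replicates 2 and 4.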

Additional observations from a re-analysis of the deposited data

Results flagged for a closer look

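Of 62 WT groups of values checked, over the members and named genes, 6 had 1 array that stood apart from the other 3 by Dixon's gap test at its 95% critical value, which flags about 1 group in 20 by chance. Ccl20 was 5.64 in WT replicate 2, above the rest, and Ccl28 probe set 1450217_at was 5.16 in WT replicate 4, below the rest. Ccr3 was 3.06 in WT replicate 3, a small gap at the floor of the array. Fscn1 was 6.09 and Gata3 was 5.01 in WT replicate 1, both below the rest, and Itln1 was 5.03 in WT replicate 2, above the rest.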

How the results depend on the processing

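In each of the 13 alternatives that gave a value, the differences of Ccl17, Ccl22, the 3 Ccl27 probe sets, Ccl21 and Ccl25 probe set 1418777_at kept their direction. At the other probe sets 19 member values turned sign, none of a difference that passed. When each array was left out in turn, member probe sets called higher ranged from 0 to 2 and called lower from 0 to 3. List genes called higher ranged from 11 to 25 (22 with all arrays) and called lower from 9 to 22 (21 with all arrays). The leave-one-out differences ranged from -0.044 to 0.28 for Ccl19, from -0.071 to 0.28 for Ccl20 and from -0.22 to 0.29 for Ccl25 probe set 1458277_at. For Ccl28 they ranged from -0.042 to 0.11 (1450217_at), from -0.094 to 0.65 (1455577_at) and from -0.13 to 0.22 (1450218_at). For the receptors they ranged from -0.0047 to 0.41 for Ccr8, from -0.18 to 0.080 for Ccr7 and from -0.10 to 0.049 for Ccr3. Quantile normalization gave -5.96e-05 for Ccl25 probe set 1458277_at and 0.02 for Ccr7, and ended the call of Ccl27 probe set 1419188_s_at (adjusted p = 0.077), as did an intensity trend with robust moderation (0.051). Without WT replicates 2 and 4, Ccl25 probe set 1458277_at gave -0.13 and Ccl28 probe set 1450217_at -0.0045. Ccl25 probe set 1418777_at passed with the filter (adjusted p = 0.044) and with 1 probe set per gene (0.0496). Replicate numbers share no stated animal, litter or day, and deviations of same-numbered arrays correlated at -0.11 and 0.24. The replicate block, which can use WT replicates 1 and 2 alone for the contrast, gave 35 list genes called lower, a Ccl21 difference of -1.08 (adjusted p = 0.025) and a Ccr9 call (0.63, adjusted p = 0.045). It gave -0.25 for Ccl19, -0.16 for Ccl20, -0.0096 for Ccl28 probe set 1450217_at and -0.029 for Ccr4. The cause of these changes was not tested. Fewer arrays also lower the power of each fit. Ccl1, 2 of the 3 Ccl28 probe sets and most receptors read below the array medians, where a change may go unseen.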
